A study of Mus musculus with 4 samples.

Results

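The genes of the collagen alpha chains were followed in tail tip fibroblasts (TTFs) that carry an *Xist* transgene on an autosome. Members were chosen by symbol, as all 44 of the 23924 genes in the expression matrix that are named Col, a type number, the letter a and a chain number. They were grouped by the assembly they build, into 11 fibrillar chains, 9 network-forming chains, 9 fibril-associated chains with interrupted helices (FACIT), 4 transmembrane chains and 11 chains of other types (types VI, VII, XV, XVIII, XXVI and XXVIII).

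Poly(A) RNA was sequenced from 2 transgenic (TG) and 2 wildtype (WT) libraries of male TTFs. TG cells were hemizygous Tg2087/+ from the line C57BL/6J-TgBAC8-2087, in which a BAC of the X-inactivation center including *Xist* sits in an autosome, and WT cells came from +/+ animals of the same litter. The cells of both genotypes had been immortalized with SV40 large T antigen and were tetraploid, so both genotypes share that treatment. Cells of the 2 genotypes came from different animals, so a change that arose in a line during immortalization cannot be told apart from genotype. Only a single transgenic line was used. No age is given, and it is not stated that libraries within a genotype were made from different animals or cultures, so the p-values measure the spread between these libraries, which may be technical.

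Values are FPKM, read counts scaled to transcript length and to the total of the library, in which chains of unequal length can be compared. The libraries held 9465712 to 14639946 reads, worked out from the FPKM themselves. *Xist*, the gene that defines TG, was listed at 0 and 0.108 FPKM in WT 1 and WT 2 and at 2.31 and 2.28 FPKM in TG 1 and TG 2, as the labels state. Of the fibroblast markers, *Vim* (2150 to 2550 FPKM), *S100a4* (1420 to 1960 FPKM) and *Thy1* (452 to 681 FPKM) were the most abundant. *Pdgfra* (0.0999 to 1.13 FPKM), *Dpt* (0.429 to 1.73 FPKM) and *Dcn* (0.878 FPKM or less) were nearly absent, and *Lum* was at 0 in every library. The defining markers of keratinocytes (*Krt5*, *Krt14*), leukocytes (*Ptprc*) and Schwann cells (*Sox10*) were at 0 in all 4 libraries, and the 6 endothelial markers summed to 0.036 to 0.567 FPKM. For osteoblasts, *Bglap* and *Ibsp* were at 0 in every library and *Runx2* made up most of a list that summed to 7.35 and 8.32 FPKM in WT and to 4.97 and 5.43 FPKM in TG. What remained of the other lists was *Krt10* (1.40 to 2.45 FPKM), *Cd68* (5.12 to 12.1 FPKM) and *Mbp* (0.792 to 1.47 FPKM), none of which passed the test that compared the genotypes.

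Collagens are the main structural proteins of the extracellular matrix, and fibroblasts are their chief source in skin and tendon. Each molecule is a triple helix of 3 alpha chains, which requires glycine at one position of each repeated triplet of residues, and the chains of a molecule are made by 1, 2 or 3 genes. Fibrillar collagens (types I, II, III, V, XI, XXIV and XXVII) pack into fibrils, types IV, VIII and X form networks, of which type IV builds the basement membrane, and FACIT collagens decorate fibril surfaces. Transmembrane collagens stay anchored in the plasma membrane, and type VI forms beaded filaments around cells.

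The repeat that makes a gene a collagen can be read in its exons. Since a triplet takes 9 bases and begins with a glycine codon (GGN), helix exons of fibrillar genes are whole multiples of 9 bases, often of 54. One 54-base exon, in GENCODE vM21 and the mm10 build, is shown for each of 6 chains that the results turn on, with glycine codons in capitals, to illustrate the repeat. They are exon 8 of *Col1a1* (chr11:94939904-94939957, plus strand), exon 8 of *Col1a2* (chr6:4515481-4515534, plus), exon 15 of *Col5a1* (chr2:27965251-27965304, plus), exon 4 of *Col27a1* (chr4:63231792-63231845, plus), exon 55 of *Col12a1* (chr9:79614349-79614402, minus) and exon 7 of *Col4a1* (chr8:11245211-11245264, minus).
Col1a1: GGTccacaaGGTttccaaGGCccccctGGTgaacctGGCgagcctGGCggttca
Col1a2: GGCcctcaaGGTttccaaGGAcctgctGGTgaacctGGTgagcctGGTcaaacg
Col5a1: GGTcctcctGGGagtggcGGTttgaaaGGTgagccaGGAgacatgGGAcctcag
Col27a1: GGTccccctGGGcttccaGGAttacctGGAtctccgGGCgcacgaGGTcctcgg
Col12a1: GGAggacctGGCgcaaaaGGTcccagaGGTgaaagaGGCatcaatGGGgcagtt
Col4a1: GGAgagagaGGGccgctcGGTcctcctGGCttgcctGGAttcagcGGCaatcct

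Each of these exons was chosen as the first of 54 bases with a glycine codon every 9 bases, so its 6 glycine codons follow from that choice. Exons of 54 bases made up 21 of 49 wholly coding exons in *Col1a1*, but 4 of 63 in *Col12a1* and 2 of 50 in *Col4a1*. Over the 11 fibrillar genes, 83.9% of the 627 wholly coding exons were multiples of 9 bases and 48.6% were of exactly 54, against 47.2% and 4.23% of 284 in the network genes and 54.9% and 26.3% of 415 in the FACIT genes. The longest unbroken stretch of glycine codons spaced 9 bases apart ranged from 216 to 344 triplets in fibrillar genes and from 38 to 66 in network genes. *Col27a1* (217 triplets) and *Col12a1* (29 triplets) had a shorter stretch than *Col1a1* (338).

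To determine whether collagen expression differed between TG and WT cells, the 4 libraries were compared with limma on log2(FPKM + 0.5) over the 11524 genes with a mean of at least 0.5 FPKM. With the thresholds of the study, a gene was called where its Benjamini-Hochberg adjusted p was under 0.01 and its log2 fold change reached 1 in either direction. Of the 44 chains, 21 passed the filter on low values, namely 8 fibrillar, 6 network, 2 FACIT, 0 transmembrane and 5 other chains.

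*Col27a1*, *Col12a1* and *Col4a1* were down-regulated in TG cells, and no chain was up-regulated. These were 3 of the 21 tested chains, where 0.469% of all tested genes were called lower (54 genes) and 0.607% higher (70 genes). Quantile normalization gave 68 lower and 58 higher genes, and a read-based test, limma's voom on the recovered reads, gave 153 and 126. No chain was called without a variance trend, over all genes above 0 or with a replicate block, where 6, 1 and 8 of all genes were called lower. At an adjusted p under 0.05 without a limit on size, 6 chains were lower, where 1.54% of all tested genes were, and 0 were higher, where 2.59% were. At an unadjusted p under 0.05, 11 chains were lower, where 6.88% of all tested genes were, and 0 were higher, where 12.7% were, and voom called 0 higher. The median log2 fold change was -0.52 over the 21 chains and 0.07 over all tested genes.

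Both TG libraries lay below both WT libraries for 18 of the 21 tested chains, where 20.3% of all tested genes did so, and both lay above for 0 chains, where 30.2% of all tested genes did. The 3 chains with overlapping libraries were *Col5a3*, *Col11a1* and *Col18a1*. In bulk RNA, fewer cells with a transcript and less of it per cell cannot be told apart.

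**Figure D1:**
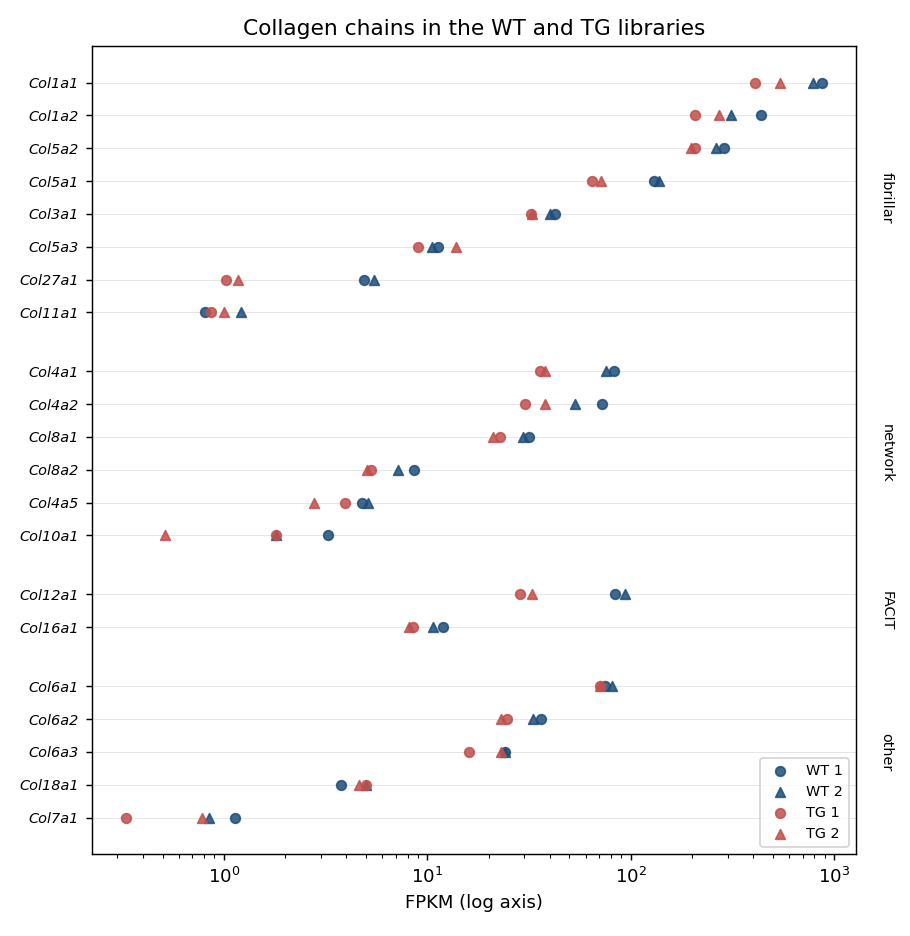
FPKM (log axis) of the 21 collagen chains with a mean of at least 0.5 FPKM in each of the 2 WT (blue) and 2 TG (red) libraries, grouped by class and ordered by WT mean, with circles for replicate 1 and triangles for replicate 2. Both red points lie left of both blue points in 18 chains, and the gap is widest for *Col27a1* and *Col12a1*.

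Type I collagen, the bulk of skin and tendon fibrils, is a heteropolymer of 2 chains from *Col1a1* and 1 from *Col1a2*. *Col1a1* (chr11:94936224-94953042) had the highest level of all chains, at 867 and 789 FPKM in WT 1 and WT 2 and at 407 and 539 FPKM in TG 1 and TG 2. The TG libraries were both lower, and the gene moved from rank 56 and 57 of the expressed genes in WT to rank 161 and 113 in TG. The log2 fold change was -0.82 ± 0.20 (SE, n = 2 against 2, limma adjusted p = 0.0491), short of both thresholds.

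*Col1a2* (chr6:4505618-4541543) was at 439 and 311 FPKM in WT and at 207 and 273 FPKM in TG. The TG values were again lower, but WT 2 was nearer to TG 2 than to WT 1. Its log2 fold change of -0.64 ± 0.22 did not pass the test (limma adjusted p = 0.143).

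Type III collagen is a homopolymer that is mixed into type I fibrils, and *Col3a1* stood at a much lower level here, at 42.5 and 40.2 FPKM in WT and at 32.3 and 32.6 FPKM in TG. Its replicates lay close together and its groups did not overlap. The log2 fold change was -0.34 ± 0.17 (limma adjusted p = 0.313), so the difference did not pass the test.

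Type V collagen is a minor component that nucleates fibrils, built from *Col5a1*, *Col5a2* and *Col5a3*. *Col5a1* (chr2:27886381-28039510) was at 130 and 138 FPKM in WT and at 64.7 and 71.7 FPKM in TG, a TG mean of 50.8% of the WT mean. This gene was the nearest to being called, with a log2 fold change of -0.97 ± 0.17 (limma adjusted p = 0.0127), and voom called it (log2 fold change -1.04, adjusted p = 2.98e-05).

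*Col5a2*, the partner chain, was at 287 and 262 FPKM in WT and at 208 and 197 FPKM in TG. The groups were separate, but the log2 fold change of -0.44 ± 0.17 did not pass the test (limma adjusted p = 0.194). *Col5a3*, which takes part in a heterotrimer of all 3 chains, was at 11.3 and 10.6 FPKM in WT and at 9.02 and 13.8 FPKM in TG, with the WT libraries between the TG libraries. Its log2 fold change was 0.03 ± 0.24 with a 95% interval from -0.50 to 0.56, and it was below 0 under upper-quartile scaling (-0.04) and quantile normalization (-0.03).

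The type XXVII chain *Col27a1* (chr4:63214009-63334991), a fibrillar chain of cartilage and developing tissues, had the largest reduction of the tested chains. It was at 4.90 and 5.47 FPKM in WT and at 1.02 and 1.17 FPKM in TG. The levels rested on 347 and 599 reads in WT and 91 and 97 reads in TG, and TG was at 21.1% of WT. On the log2 scale the difference was -1.83 ± 0.28 (limma adjusted p = 0.00671). By voom, which adds no 0.5 FPKM to a low level, it was -2.31 (adjusted p = 4.14e-06).

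*Col11a1*, which initiates the thin fibrils of cartilage, was at 0.811 and 1.22 FPKM in WT and at 0.866 and 1.0 FPKM in TG, and the TG libraries lay between the WT libraries. With 58 to 135 reads per library, its log2 fold change of -0.07 had a 95% interval from -0.91 to 0.78.

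Among the network collagens, type IV of the basement membrane is built in most tissues from 2 chains of *Col4a1* and 1 of *Col4a2*. *Col4a1* (chr8:11198423-11312889) was at 82.3 and 75.2 FPKM in WT and at 36.0 and 38.1 FPKM in TG. Both replicates of each genotype lay close together, and the TG mean was 47.1% of the WT mean. The log2 fold change was -1.08 ± 0.17 (limma adjusted p = 0.00809), and its 95% interval of -1.46 to -0.69 reached across the threshold of 1.

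*Col4a2* (chr8:11312805-11449287) was at 72.4 and 53.2 FPKM in WT and at 30.2 and 37.9 FPKM in TG. All 4 values kept the order of genotypes with a wider spread than *Col4a1*. The log2 fold change of -0.87 ± 0.21 (limma adjusted p = 0.0464) was not called.

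The pair are neighbours read in opposite directions from a shared start region, and their RefSeq spans overlap by 85 bases in GRCm38.p6. The promoter window of each gene holds a CCAAT box of its own. Whether either box bears on the level of these genes was not tested. The box before *Col4a2*, which lies inside the RefSeq span of *Col4a1* (chr8:11312762-11312789, read on the *Col4a2* strand, box in capitals), is shown as an example.
Col4a2: cgaggagctccCCAATttgttggcgctg

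The third chain in use, *Col4a5* on Chr X, was at 4.80 and 5.09 FPKM in WT and at 3.93 and 2.77 FPKM in TG (log2 fold change -0.52, limma adjusted p = 0.315). Its head-to-head neighbour *Col4a6* had at most 0.244 FPKM in any library, and *Col4a3* and *Col4a4* at most 0.0807 FPKM.

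Type VIII collagen forms hexagonal lattices beneath endothelia. *Col8a1* was at 31.8 and 29.5 FPKM in WT and at 22.8 and 21.1 FPKM in TG, and *Col8a2* was at 8.59 and 7.20 FPKM in WT and at 5.27 and 5.04 FPKM in TG. Both chains were lower in both TG libraries by a like amount, with log2 fold changes of -0.47 and -0.57, and neither passed the test (limma adjusted p = 0.184 and 0.201).

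*Col10a1*, the type X chain of hypertrophic cartilage, was the least even chain, at 3.26 and 1.81 FPKM in WT and at 1.80 and 0.515 FPKM in TG, where WT 2 and TG 1 were nearly equal. Its log2 fold change of -0.95 had a 95% interval from -1.92 to 0.02 (limma adjusted p = 0.267).

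Of the FACIT collagens, *Col12a1* (chr9:79598987-79721141), whose product binds the surface of type I fibrils in tendon, ligament and dermis, gave the smallest p of all chains. It was at 84.1 and 94.2 FPKM in WT and at 28.7 and 32.8 FPKM in TG, from 9210 and 15960 reads against 3955 and 4197 reads. The TG mean was 34.5% of the WT mean, far outside the spread of either genotype. The log2 fold change was -1.52 ± 0.18 (limma adjusted p = 0.00134).

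*Col16a1*, the other FACIT chain tested, was at 12.0 and 10.7 FPKM in WT and at 8.49 and 8.13 FPKM in TG (log2 fold change -0.42, limma adjusted p = 0.289). *Col14a1*, the chain closest to *Col12a1* in build, was nearly absent, at 0.0503 and 0.0325 FPKM in WT and at 0 in both TG libraries.

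Type VI collagen joins chains of *Col6a1*, *Col6a2* and *Col6a3* into beaded filaments next to cells. *Col6a1* was at 74.6 and 80.9 FPKM in WT and at 70.5 and 70.7 FPKM in TG, the smallest shift of a chain whose groups did not overlap (log2 fold change -0.14, 95% interval -0.51 to 0.24). *Col6a2* was at 36.1 and 33.1 FPKM in WT and at 24.7 and 23.1 FPKM in TG (log2 fold change -0.52, limma adjusted p = 0.141). *Col6a3* was at 24.0 and 24.1 FPKM in WT and at 16.0 and 23.1 FPKM in TG, so that TG 2 was close to WT (log2 fold change -0.31, limma adjusted p = 0.469).

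*Col18a1*, a basement membrane chain that releases endostatin, was at 3.78 and 4.99 FPKM in WT and at 5.02 and 4.60 FPKM in TG and showed no separation (log2 fold change 0.13, 95% interval -0.43 to 0.69). *Col7a1*, which forms the anchoring fibrils below the epidermis, was at 1.14 and 0.848 FPKM in WT and at 0.332 and 0.785 FPKM in TG, from 36 to 113 reads per library, with a log2 fold change of -0.52 and a 95% interval of -1.47 to 0.42.

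**Figure D2:**
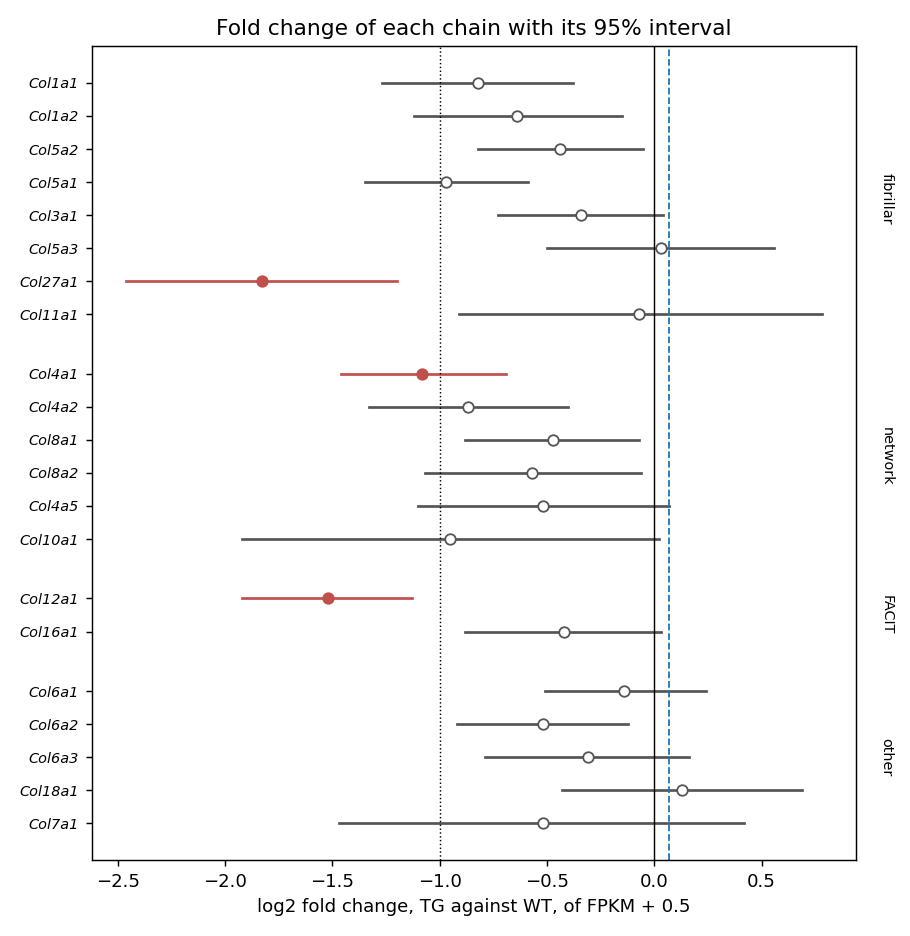
Log2 fold change of TG against WT for the 21 tested chains, on FPKM + 0.5, with 95% intervals from limma. Filled red points mark the 3 called chains, the dotted line stands at -1 and the dashed blue line at the median of all tested genes (0.07), and 19 of the 21 points lie below 0.

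The calls rested on all 4 libraries. With any library left out, fewer chains were called, and fewer of all tested genes were too. The log2 fold changes of all 3 called chains stayed between -1.01 and -1.90. Of the chains that were not called, *Col10a1* ranged from -1.54 without TG 1 to -0.36 without TG 2, *Col1a2* from -0.88 without WT 2 to -0.39 without WT 1, and *Col4a5* from -0.74 without TG 1 to -0.30 without TG 2. *Col6a3* ranged from -0.57 without TG 2 to -0.06 without TG 1, *Col7a1* from -0.84 without TG 2 to -0.21 without TG 1, and *Col6a1* from -0.20 without WT 1 to -0.08 without WT 2.

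The remaining 23 chains did not reach the filter, and none had more than 0.407 FPKM in a library (*Col9a2* in WT 1). They were 3 fibrillar chains (*Col2a1*, *Col11a2*, *Col24a1*), 3 network chains (*Col4a3*, *Col4a4*, *Col4a6*), 7 FACIT chains (*Col9a1*, *Col9a2*, *Col9a3*, *Col14a1*, *Col19a1*, *Col20a1*, *Col22a1*), all 4 transmembrane chains (*Col13a1*, *Col17a1*, *Col23a1*, *Col25a1*) and 6 others (*Col6a4*, *Col6a5*, *Col6a6*, *Col15a1*, *Col26a1*, *Col28a1*). Of these, *Col9a1*, *Col13a1*, *Col26a1* and *Col6a6* had 0 in all 4 libraries, and a count of 0 allows up to 3 reads in a library.

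*Col2a1*, the main chain of cartilage, was at 0.0212 and 0.302 FPKM in WT and at 0.151 and 0.181 FPKM in TG. *Col17a1*, the hemidesmosome collagen of keratinocytes, was at 0.0784 and 0.0253 FPKM in WT and at 0 and 0.117 FPKM in TG. Together the 23 chains summed to 1.73 and 0.852 FPKM in WT and to 1.23 and 1.19 FPKM in TG, and at these levels no difference was detectable.

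Taken as a sum, collagen message took 1.36% and 1.23% of all counted reads in WT and 0.711% and 0.839% in TG. Summed over all chains, WT had 2220 and 1980 FPKM and TG had 1180 and 1400 FPKM, a TG mean of 0.615 of the WT mean. With 2 libraries against 2, an exact permutation test cannot give a p below 0.333, so sums and ratios are given as values without a test.

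The sums of the classes stood at unequal fractions of WT. Summed FACIT message was at 96.8 and 105 FPKM in WT and at 37.6 and 41.4 FPKM in TG (0.391 of WT), and the network sum was at 204 and 172 FPKM in WT and at 100 and 106 FPKM in TG (0.548 of WT). Fibrillar chains summed to 1780 and 1560 FPKM in WT and to 930 and 1130 FPKM in TG (0.617 of WT), and the other types to 140 and 144 FPKM in WT and to 117 and 123 FPKM in TG (0.843 of WT). The order of the FACIT and network classes rests on few genes, since *Col12a1* made up most of the FACIT sum and *Col4a1* and *Col4a2* most of the network sum.

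The make-up of the collagen message was dominated by the same class throughout. Fibrillar chains held 78.5% to 80.7% of collagen FPKM in every library, while the share of the other types was 6.30% and 7.28% in WT and 9.88% and 8.76% in TG.

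**Figure D3:**
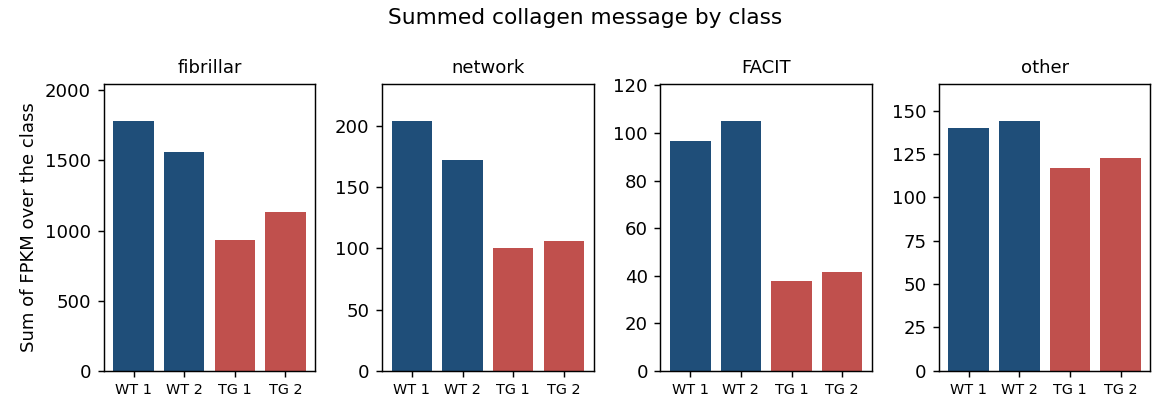
Sum of FPKM over the chains of each class in the 2 WT (blue) and 2 TG (red) libraries, each panel with its own axis from 0 and transmembrane chains left out because they summed to at most 0.285 FPKM. Every red bar is lower than every blue bar of its panel, by most in the FACIT class (TG mean 0.391 of WT).

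Chains that build 1 molecule were also set against each other within a library, a ratio that library depth does not alter. *Col1a1* to *Col1a2* was 1.98 and 2.54 in WT and 1.97 in both TG libraries, near the 2 to 1 make-up of the type I molecule. *Col4a1* to *Col4a2* was 1.14 and 1.41 in WT and 1.19 and 1.01 in TG, and *Col8a1* to *Col8a2* was 3.71 and 4.10 in WT and 4.32 and 4.19 in TG. The ratios overlapped between genotypes for type IV. For type I both TG values lay just below WT 1, and for type VIII both lay above WT 2, by less than the gap between the WT libraries in each case.

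Some ratios of type V and type VI chains lay apart in the genotypes. *Col5a1* to *Col5a2* was 0.455 and 0.527 in WT and 0.310 and 0.364 in TG, and *Col5a3* to *Col5a1* was 0.0870 and 0.0764 in WT and 0.139 and 0.193 in TG. *Col6a1* to *Col6a2* was 2.07 and 2.44 in WT and 2.86 and 3.05 in TG. Against *Col6a3* the genotypes overlapped, with *Col6a1* at 3.10 and 3.36 times its level in WT and 4.40 and 3.05 times in TG, and *Col6a2* at 1.5 and 1.37 times in WT and 1.54 and 0.999 times in TG. *Col12a1* to *Col1a1*, the fibril-associated chain against its fibril, was 0.0970 and 0.119 in WT and 0.0705 and 0.0608 in TG.

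**Figure D4:**
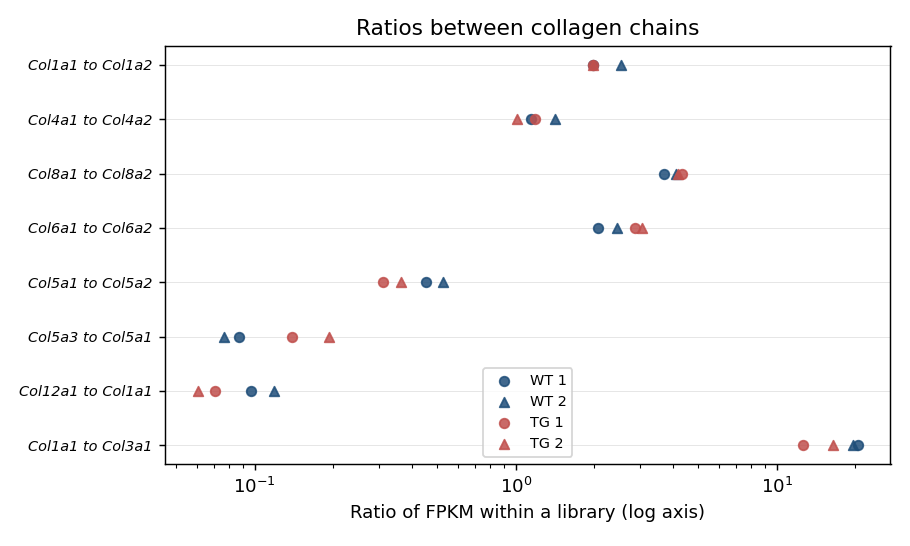
Ratio of FPKM between pairs of chains within each library (log axis), WT in blue and TG in red, circles for replicate 1 and triangles for replicate 2. The ratio of *Col1a1* to *Col1a2* is about 2 in 3 libraries and 2.54 in WT 2, while *Col5a1* to *Col5a2* and *Col12a1* to *Col1a1* are lower in both TG libraries.

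The chains are scattered over the genome, and their 3 calls lay on Chr 4, Chr 8 and Chr 9. Chr 1 holds 7 chains, of which *Col3a1*, *Col5a2* and *Col6a3* were tested and 0 were called by limma or voom. Over all tested genes, limma called 0.469% lower and voom 1.33%, so a count of 0 among 3 chains does not set Chr 1 apart. Each of these 3 chains had both TG libraries below both WT libraries, as had 20.3% of all tested genes. *Col3a1* and *Col5a2* lie 24.6 kb apart and had log2 fold changes of -0.34 and -0.44. *Col6a1* and *Col6a2* lie 85.2 kb apart on Chr 10 and had -0.14 and -0.52. Across the 21 tested chains, the fold change had a Spearman correlation of -0.32 with the WT level and of -0.21 with transcript length, as a description across genes of the same 4 libraries.

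Promoter windows of 300 bases around the annotated start were found in RefSeq (GRCm38.p6) for 18 of the 21 tested chains, with none for *Col1a1*, *Col5a2* and *Col12a1*. A GC box (GGGCGG, either strand) stood in 14 of the 18, against 35.7% of all 32851 windows. A CCAAT box (CCAAT) stood in 9, against 37.4% of all windows, and a TATA box (TATAAA) in 2, *Col3a1* and *Col10a1*, against 13.6%. The SMAD-type motif CAGACA stood in 5 windows (*Col1a2*, *Col3a1*, *Col5a1*, *Col7a1*, *Col8a1*), against 21.0% of all, the AP-1 motif TGANTCA in 1 (*Col6a1*), against 7.81%, and the TEAD-type motif GGAATG in 2 (*Col3a1*, *Col6a2*), against 14.7%.

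The upstream part of the *Col5a1* window (chr2:27886175-27886380, plus strand) is printed as an example of a GC-rich start without a TATA box, with its 2 GC boxes in capitals.
Col5a1: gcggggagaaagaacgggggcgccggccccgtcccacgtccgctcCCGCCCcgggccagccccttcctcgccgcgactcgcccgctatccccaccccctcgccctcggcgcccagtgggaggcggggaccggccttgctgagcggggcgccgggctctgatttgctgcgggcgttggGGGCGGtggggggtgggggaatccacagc

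Most genes that hydroxylate, fold, export, trim and cross-link collagen were not called, and the list leaned slightly lower in TG. Of 37 listed genes, 34 were tested, and limma called 1 lower, *Loxl2*, and 0 higher, where 0.469% and 0.607% of all tested genes were. The median log2 fold change of the list was -0.11, against 0.07 over all tested genes. Both TG libraries lay below both WT libraries for 11 of the 34 and above for 4, where 20.3% and 30.2% of all tested genes did. Without the size limit, 3 were lower at an adjusted p under 0.05, where 1.54% of all tested genes were. At an unadjusted p under 0.05, 6 were lower and 1 was higher, where 6.88% and 12.7% of all tested genes were. By voom, 2 were called lower and 0 higher, where 1.33% and 1.09% of all tested genes were.

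*Loxl2*, a lysyl oxidase that cross-links type IV collagen, was at 30.3 and 30.9 FPKM in WT and at 14.0 and 12.6 FPKM in TG (log2 fold change -1.17 ± 0.19, limma adjusted p = 0.00751). *Tll1*, a protease that removes procollagen C-propeptides, was at 9.74 and 11.6 FPKM in WT and at 4.32 and 3.98 FPKM in TG (log2 fold change -1.26, limma adjusted p = 0.0137) and was the second gene that voom called. *P3h1*, a prolyl 3-hydroxylase, was at 40.1 and 44.9 FPKM in WT and at 26.8 and 23.3 FPKM in TG (log2 fold change -0.75, limma adjusted p = 0.0485).

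The abundant members of the list were not called. *Sparc*, a collagen-binding matrix protein and the most abundant of them, was at 1880 and 1960 FPKM in WT and at 1300 and 1310 FPKM in TG (log2 fold change -0.56, limma adjusted p = 0.145, voom adjusted p = 0.00459). *Serpinh1*, the collagen chaperone HSP47, was at 899 and 717 FPKM in WT and at 682 and 696 FPKM in TG, and *P4hb*, a subunit of prolyl 4-hydroxylase, at 688 and 486 FPKM in WT and at 557 and 567 FPKM in TG. *Lox*, the main lysyl oxidase, was at 80.2 and 82.4 FPKM in WT and at 93.6 and 81.6 FPKM in TG. *Pcolce*, an enhancer of procollagen trimming, was at 470 and 451 FPKM in WT and above that in TG, at 649 and 643 FPKM, without passing the test (limma adjusted p = 0.159).

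Of 11 collagen receptor genes, 6 were tested, and limma and voom each called 1 lower and 0 higher. Over all tested genes, limma called 0.469% lower and 0.607% higher, and voom 1.33% and 1.09%. Both TG libraries lay below both WT libraries for 4 receptor genes and above for 0, where 20.3% and 30.2% of all tested genes did. The list median was -0.35, against 0.07 over all tested genes. At an unadjusted p under 0.05, 1 was lower and 0 were higher, where 6.88% and 12.7% of all tested genes were. *Itga11*, the alpha subunit of the integrin that binds type I collagen on fibroblasts, was at 28.1 and 30.8 FPKM in WT and at 3.66 and 3.34 FPKM in TG. The log2 fold change, -2.90 ± 0.20 (limma adjusted p = 7.84e-05), was larger in size than that of any tested chain. Its partner *Itgb1* was at 414 and 374 FPKM in WT and at 331 and 326 FPKM in TG and did not pass the test (limma adjusted p = 0.464), nor did the collagen-binding kinases *Ddr1* (limma adjusted p = 0.339) and *Ddr2* (limma adjusted p = 0.419).

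Of 16 genes of collagen degradation, 11 were tested and limma called 0, while voom called *Timp1* alone, where it called 1.09% of all tested genes higher. At an unadjusted p under 0.05, 2 were lower and 2 higher, where 6.88% and 12.7% of all tested genes were. *Timp1*, an inhibitor of matrix metalloproteinases, was at 201 and 231 FPKM in WT and at 574 and 379 FPKM in TG (log2 fold change 1.11, limma adjusted p = 0.0202). *Mmp14*, a membrane-bound collagenase, was at 274 and 307 FPKM in WT and at 173 and 220 FPKM in TG, and *Mmp2*, which it activates, at 81.2 and 77.9 FPKM in WT and at 63.8 and 61.1 FPKM in TG, and neither passed the test. Other genes of the list went the other way without passing it, namely *Ctsk*, *Mmp16* and *Ctsb* (log2 fold changes 0.82, 0.90 and 0.26). Both TG libraries lay below both WT libraries for 3 tested genes and above for 4, where 20.3% and 30.2% of all tested genes did. The list median was 0.26.

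**Figure D5:**
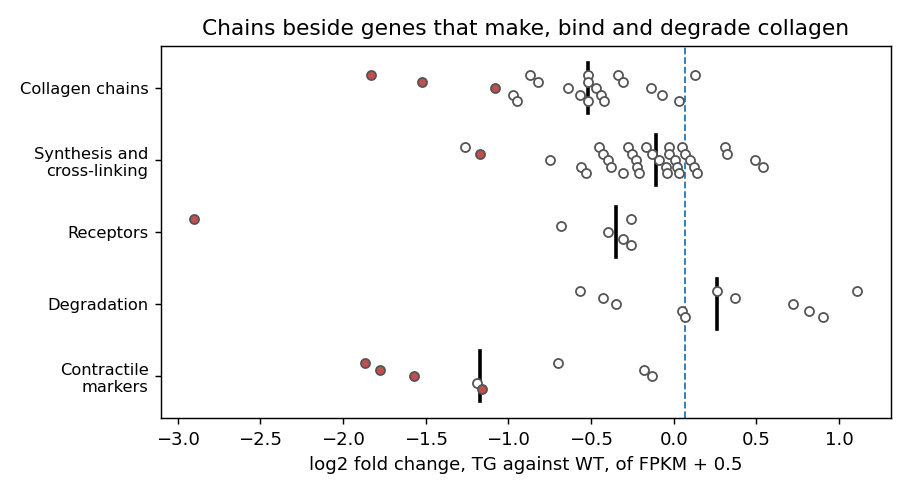
Log2 fold change of TG against WT for the tested genes of 5 lists, 1 point per gene, filled where called, with the list median as a black bar and the median of all tested genes as a dashed blue line. The chain median lies at -0.52, that of synthesis and cross-linking genes at -0.11, that of degradation genes at 0.26 and that of contractile markers at -1.17.

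Some markers of contractile fibroblasts were lower in TG beside the chains. Of 10 such genes, 8 were tested, and limma called 4 lower (*Actg2*, *Cnn1*, *Lmod1*, *Myl9*), where 0.469% of all tested genes were, and 0 higher, where 0.607% were. Voom called 5 lower, with *Acta2* added, and 0 higher, where 1.33% and 1.09% of all tested genes were. At an unadjusted p under 0.05, 6 were lower and 0 higher, where 6.88% and 12.7% of all tested genes were. *Smtn* and *Cald1*, which also belong to the contractile apparatus, had overlapping libraries and log2 fold changes of -0.18 and -0.13. The 10 listed contractile markers together summed to 11400 and 11700 FPKM in WT and to 5600 and 6120 FPKM in TG. *Acta2*, smooth muscle actin, was at 4030 and 4800 FPKM in WT and at 1850 and 2000 FPKM in TG (log2 fold change -1.19, limma adjusted p = 0.0139). *Myh11* and *Des*, which define mature muscle cells, were at 0.376 FPKM or less and 0.435 FPKM or less in all 4 libraries. The part of the contractile state in the collagen result was not tested.

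Of the 8 cartilage markers, 3 were tested, and limma called 0 lower and 1 higher, where 0.469% and 0.607% of all tested genes were. The higher one was *Sox9*, the transcription factor that drives type II collagen in chondrocytes, at 1.90 and 2.44 FPKM in WT and at 7.11 and 9.05 FPKM in TG (log2 fold change 1.68 ± 0.26, limma adjusted p = 0.00671). The other tested markers, *Acan* and *Matn3*, went opposite ways (log2 fold changes 0.59 and -0.78) and did not pass the test (limma adjusted p = 0.559 and 0.364). The 8 markers summed to 3.77 and 3.57 FPKM in WT and to 8.92 and 10.4 FPKM in TG, most of it *Sox9* itself, and *Cnmd* was at 0 in every library. *Postn*, periostin, a fibroblast protein that binds type I collagen, was at 82.4 and 90.5 FPKM in WT and at 28.2 and 27.0 FPKM in TG (log2 fold change -1.63 ± 0.17, limma adjusted p = 8.55e-04). By limma it was the single gene called of 12 tested fibroblast markers, where 0.469% of all tested genes were called lower and 0.607% higher. Voom, which called 1.33% and 1.09% of all, also called *Pdgfrb*, a growth factor receptor, at 56.8 and 57.3 FPKM in WT and at 31.7 and 26.8 FPKM in TG (adjusted p = 1.35e-04). Both TG libraries lay below both WT libraries for 5 markers and above for 5, where 20.3% and 30.2% of all tested genes did. At an unadjusted p under 0.05, 3 were lower and 3 higher, where 6.88% and 12.7% of all were. The higher ones were *Pdgfra*, *Twist1* and *Twist2* (log2 fold changes 1.08, 0.54 and 0.78). The 14 listed markers summed to 5400 and 5340 FPKM in WT and to 5420 and 4940 FPKM in TG.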

How the data were processed

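Strand-specific, paired-end RNA-seq covered 2 libraries of each genotype, WT and TG, from immortalized male TTFs. Per the labels and the methods, the authors used Rsubread with the mm10 build, made gene counts, tested these with DESeq and deposited values as FPKM, which divide by gene length and library total. Genes sharing sequence can share reads under such counting.

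Libraries were grouped by the labelled genotype. limma 3.58.1 in R 4.3.3 (eBayes with a variance trend) was run on log2(FPKM + 0.5) where a gene averaged 0.5 FPKM or more, and p-values were adjusted after Benjamini and Hochberg over these 11524 genes. Fold changes on this scale understate those of low genes. Low FPKM values stood in ratios of whole reads, from which reads were recovered for 15528 of 15530 expressed genes (98.88% to 98.94% of each library total), and voom was run on them as an alternative. The test was tried on simulated data. Intervals cover the spread between libraries, and limits from reads cover counting error only. WT 2 was 1.547 times as deep as WT 1.

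Every gene matching the symbol pattern was a member. Members above the filter were described singly, the others by range, and genes of other lists were named where called, abundant or defining. *Tll1*, *P3h1*, *Pdgfrb*, *Timp1*, *Mmp14*, *Mmp2*, *Ctsk*, *Mmp16*, *Ctsb*, *Pcolce*, *Tgfb1*, *Tgfb2*, *Tgfb3*, *Twist1*, *Twist2*, *Acan* and *Matn3* were added after their values were seen. The members and lists were chosen with earlier results of these data known. Other pseudocounts, filters, scalings, a replicate block, voom and the omission of each library were tried. Exon sequences came from GENCODE vM21, and promoters and gene spans from RefSeq (GRCm38.p6).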

Additional observations from a re-analysis of the deposited data

How the results depend on the processing

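The count of 3 chains called lower was kept with a pseudocount of 1, a filter of 1 FPKM and upper-quartile scaling, and 0 were called higher under all alternatives run. It was 0 over all genes above 0 and without a variance trend, 2 with a pseudocount of 0.1 and 4, with *Col5a1* added, under quantile normalization and voom. It fell with any library left out, as did the count of lower genes over all tested genes. The count of synthesis genes called lower, 1, was 0 over all genes above 0, 0 without a variance trend and 2 by voom. At an adjusted p under 0.05 with the log2 fold change limit of 1 kept, it was 2. The median log2 fold change of the chains, -0.52, was -0.58 under upper-quartile scaling, -0.60 under quantile normalization and -0.59 to -0.42 with a library left out. The fibrillar median of -0.54 was -0.64 with a filter of 1 FPKM, -0.60 and -0.68 under these scalings and -0.69 to -0.38 with a library left out. The network median was -0.89 to -0.48 with a library left out, and the FACIT median of -0.97 was -1.04 and -1.06 under the scalings. *Col5a3*, near 0, turned to -0.04 under upper-quartile scaling, -0.03 under quantile normalization, -0.04 by voom, -0.02 without WT 2 and -0.27 without TG 2, and ranged from -0.27 to 0.32 with a library left out. *Col11a1* turned to 0.13 without WT 2 and 0.00 without TG 1 (range -0.26 to 0.13), and *Col18a1* to -0.05 without WT 1 (range -0.05 to 0.31). The causes were not tested. Where a genotype was left with 1 library, its spread was assumed to be that of the other genotype.

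The replicate numbers are shared between genotypes, and deviations of libraries with the same number correlated at -0.028 over 11524 genes. With 2 libraries of each genotype, this cannot show whether libraries with the same number were prepared together. With a replicate block, 0 chains and 0 synthesis genes were called lower, and over all genes 8 were lower and 12 higher.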

Other observations

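Genes that signal to collagen genes were measured beside them. Of 24 such regulators, 23 were tested, and limma called 1 lower and 1 higher, where 0.469% and 0.607% of all tested genes were, and voom called 2 lower and 1 higher, where 1.33% and 1.09% were. *Ccn2*, connective tissue growth factor, was called lower, at 605 and 590 FPKM in WT and at 259 and 252 FPKM in TG (log2 fold change -1.22 ± 0.17, limma adjusted p = 0.00435). *Sox9* was the single regulator called higher, by limma and by voom. *Ccn1*, a gene of the same family, was at 502 and 541 FPKM in WT and at 524 and 572 FPKM in TG.

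The 3 ligands of transforming growth factor beta did not share a direction. *Tgfb1* was at 32.0 and 44.1 FPKM in WT and at 77.2 and 61.1 FPKM in TG (log2 fold change 0.86, limma adjusted p = 0.0487). *Tgfb2* was at 5.33 FPKM in both WT libraries and at 2.18 and 1.61 FPKM in TG (log2 fold change -1.30, limma adjusted p = 0.0270) and was called lower by voom (adjusted p = 8.81e-04), and *Tgfb3*, the most abundant, was at 295 and 331 FPKM in WT and at 184 and 223 FPKM in TG (log2 fold change -0.63, limma adjusted p = 0.0874). The receptor *Tgfbr2* was at 14.7 and 18.7 FPKM in WT and at 18.8 and 15.2 FPKM in TG, and *Smad3* at 13.3 and 15.5 FPKM in WT and at 14.5 and 14.8 FPKM in TG.

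Libraries of 1 genotype differed in individual chains by up to 1.80-fold in WT and 3.49-fold in TG, both for *Col10a1*, while the median ratio of the larger to the smaller library over the 21 tested chains was 1.10 in WT and 1.14 in TG. *Col1a2* and *Col4a2*, which were 1.41-fold and 1.36-fold higher in WT 1 than in WT 2, were less even than their partners *Col1a1* and *Col4a1*, at 1.10-fold and 1.09-fold.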
